A study of Homo sapiens with 9 samples.

Results

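The transcripts edited by ADAR-SUGP1, a fusion of the splicing factor SUGP1 to a deaminase, are described here by function, by region and by sites per gene. All 1340 transcripts of its deposited list were taken, which belong to 1110 of the 1513 genes listed for either fusion of the study. The study asked where SUGP1 and a related protein, GPATCH8, contact RNA across the transcriptome. It used TRIBE-seq in 293T, a line derived from human embryonic kidney that expresses the SV40 large T antigen and takes up plasmids readily. Cells were transfected with a plasmid for ADAR-SUGP1 (2 libraries) or for a non-targeting control in which the same deaminase domain was joined to MCP, a phage coat protein (2 libraries), or were left untransfected (1 library), and these 5 of the study's 9 libraries made up its second sequencing run. Of the transfected cells, live GFP-positive ones were sorted after 24 hours, and no time is given for the untransfected library. Ribosome-depleted RNA was read as paired 100 bp reads. GPATCH8-ADAR and its own control were sequenced in the first run, and the effects of fusion and of run cannot be told apart. All libraries come from this 1 line with plasmid-driven expression of a fusion protein, and the labels do not say whether replicates were separate cultures.

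SUGP1 carries a G-patch domain, a short motif through which proteins bind and stimulate DEAH-box helicases. It works with SF3B1 in recognition of the branchpoint, the intronic adenosine that the U2 snRNP marks for splicing, and its loss from the spliceosome is linked to the cryptic 3′ splice sites used in SF3B1-mutant cells. In TRIBE the deaminase, here the catalytic domain of a hyperactive Drosophila enzyme, turns adenosines near the places its partner touches into inosines, which sequencing reads as guanosines, so an editing site stands near a contact rather than on it.

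The authors kept sites found in both replicates and subtracted endogenous editing and that of the control, and the list gives 1 whole number of sites per transcript with both replicates pooled. No control value, editing level, read depth or replicate value remains, so counts could not be compared between samples and no p-value is given. Intervals are exact binomial 95% intervals over sites, genes or transcripts. They cover counting error only, and sites of 1 gene are not independent. A gene's body count is the sum of its 5′ UTR, coding, 3′ UTR and intronic sites over its listed transcripts. Sites of the promoter and stop codon are not part of that sum in any transcript. Expression and transcript length are not in the table, and their part in differences between genes, groups or regions was not tested.

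No base sequence of an edited site can be shown, since the list names transcripts and not positions. The only RNAs of the list short enough to print whole are microRNAs, and of its 3 transcripts typed as miRNA, MIR3671 had a mature sequence in RefSeq. It is shown with the mature sequences of MIR106B and MIR25, which lie with MIR93 within MCM7, the edited protein-coding gene with the most intronic sites among those that hold a microRNA gene on their own strand. Capitals mark the seed, bases 2 to 8. Sequences and positions are from RefSeq, GRCh38.p14, whereas the edited sites were called on hg19. MIR3671 lies at chr1:65057762-65057783, miR-106b-5p at chr7:100094043-100094063 and miR-25-3p at chr7:100093571-100093592, all on the minus strand.
hsa-miR-3671: aUCAAAUAaggacuagucugca
hsa-miR-106b-5p: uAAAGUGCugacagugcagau
hsa-miR-106b-3p: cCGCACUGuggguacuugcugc
hsa-miR-25-5p: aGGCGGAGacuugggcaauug
hsa-miR-25-3p: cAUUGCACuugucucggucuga
MIR3671 was listed for 1 promoter site and none in its body. MCM7, a subunit of the replicative helicase, carried 5 sites, all intronic. Whether any of these lies near the microRNAs cannot be read from the table.

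Introns held most of the sites. Of 1358 body sites, 940 (69.2%, interval 66.7 to 71.7) were intronic, 211 (15.5%, 13.7 to 17.6) lay in a 3′ UTR, 141 (10.4%, 8.81 to 12.1) in coding sequence and 66 (4.86%, 3.78 to 6.14) in a 5′ UTR. Counted by gene, 709 of 1110 genes (63.9%, 61.0 to 66.7) had an intronic site, 177 (15.9%) a 3′ UTR site, 128 (11.5%) a coding site and 57 (5.14%) a 5′ UTR site. The regional order was thus the same over sites and over genes. Of the 940 intronic sites, 106 were in transcripts not typed protein-coding, whose exons have no column of their own. Among protein-coding transcripts alone, introns held 66.6% of sites.

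**Figure D1:**
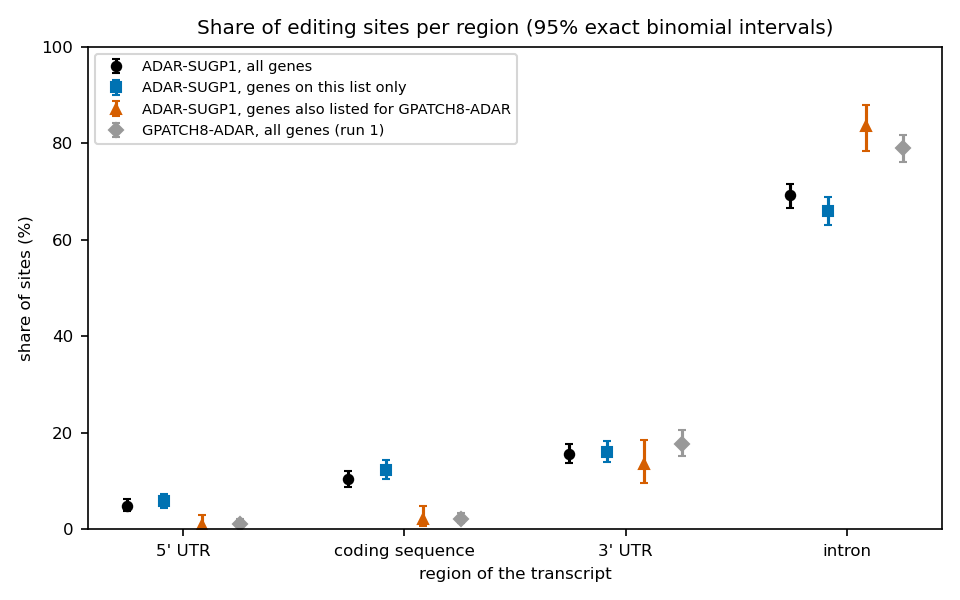
Share of body sites (%) in each region of the transcript for all 1110 ADAR-SUGP1 genes, for the 948 listed for this fusion alone, for the 162 also listed for GPATCH8-ADAR, and for GPATCH8-ADAR itself; bars are exact binomial 95% intervals, which cover counting error only. Coding sequence took 12.2% of the sites in genes listed for ADAR-SUGP1 alone and 2.04% in the shared genes.

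Of the 214 genes with 2 or more sites, 184 (86.0%) had all of them in 1 region and 30 in 2, and a gene with 1 site can only lie in 1. Over all genes, sites were confined to introns in 680 genes (61.3%), to the 3′ UTR in 166 (15.0%), to coding sequence in 113 (10.2%) and to the 5′ UTR in 52 (4.68%). No gene had sites in more than 2 regions. Introns were 1 of the 2 in 29 of the 30, paired with coding sequence in 14 genes, with the 3′ UTR in 10 and with the 5′ UTR in 5. The exception was FAM160B2, with 1 coding site and 1 in its 3′ UTR.

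Among the genes with sites in 2 regions, RPL31, which encodes part of the large ribosomal subunit, carried 6 intronic sites and 1 in a 3′ UTR. C7orf43 (current symbol TRAPPC14), a subunit of the TRAPP II vesicle tethering complex, carried 4 intronic sites and 1 coding site. NDUFV3, an accessory protein of complex I in the respiratory chain, had 4 intronic sites and 1 3′ UTR site, and the mitochondrial carrier gene SLC25A16 had 3 and 1. HDAC10, a deacetylase that acts on polyamines, was even, with 2 intronic and 2 coding sites. In AGAP6, an Arf GTPase-activating protein gene, the exonic sites outnumbered the intronic ones, with 2 in a 5′ UTR and 1 in an intron. LAMB2, a laminin chain of basement membranes, likewise had 2 coding sites and 1 intronic site.

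Most genes held a single site. There were 827 genes with 1 body site, 146 with 2, 47 with 3, 12 with 4, 6 with 5, 1 with 6 and 2 with 7, and 69 genes had none. Genes carried 1.22 ± 0.765 sites on average (SD, n = 1110 genes). The 214 genes with 2 or more sites (19.3%) carried 531 sites, or 39.1% of the total. The 68 genes with 3 or more carried 239 sites (17.6%), and the 21 with 4 or more carried 98 (7.22%). Sites were therefore spread thinly over many genes.

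**Figure D2:**
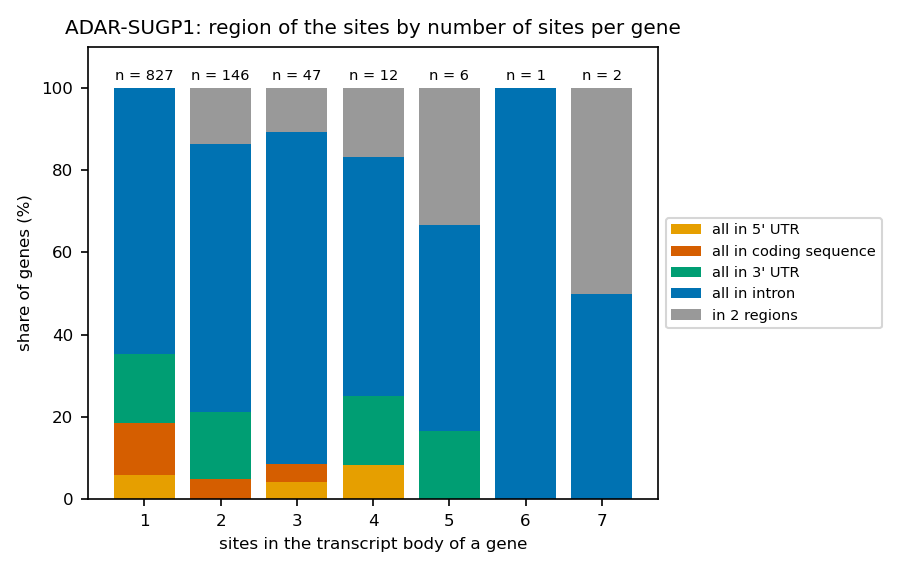
Share of genes (%) whose body sites lie all in 1 region (colours) or in 2 regions (grey), by the number of sites in the gene; n above each bar is the number of genes. Genes with all sites in introns are the largest class at 1 to 5 sites, and no gene with more than 3 sites has all of them in coding sequence.

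Most of the 214 genes with 2 or more sites had all of them in introns (145, 67.8%). Most genes with 1 site also had it there (535 of 827). Of the 680 genes edited in introns alone, 145 (21.3%, 18.3 to 24.6) had 2 or more sites, with a mean of 1.32 ± 0.719 (SD). For genes edited in the 3′ UTR alone this was 27 of 166 (16.3%, 11.0 to 22.8), with a mean of 1.20 ± 0.556. For coding sequence alone it was 9 of 113 (7.96%, 3.71 to 14.6), with a mean of 1.10 ± 0.353, and for the 5′ UTR alone 3 of 52 (5.77%, 1.21 to 15.9), with a mean of 1.13 ± 0.561. The intervals of introns and coding sequence did not overlap, and those of introns and the 3′ UTR did. These classes leave out the 30 genes with sites in 2 regions, each of which has 2 or more sites by definition. Among them were 14 genes with coding and intronic sites, more than the 9 with repeats in coding sequence alone. The shares above therefore hold only for genes edited in 1 region.

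The genes with the most sites came from several kinds of machinery. RPL31 and SPG7, a mitochondrial inner-membrane protease mutated in a hereditary spastic paraplegia, carried 7 sites each. RP11-440L14.1, a transcript annotated as antisense, carried 6. The genes with 5 intronic sites were CPNE1, a calcium-dependent membrane-binding copine, INO80E, a subunit of the INO80 chromatin remodeller, and MCM7. NDUFS1, a core subunit of complex I, carried its 5 sites all in the 3′ UTR, the most of any gene there.

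**Figure D3:**
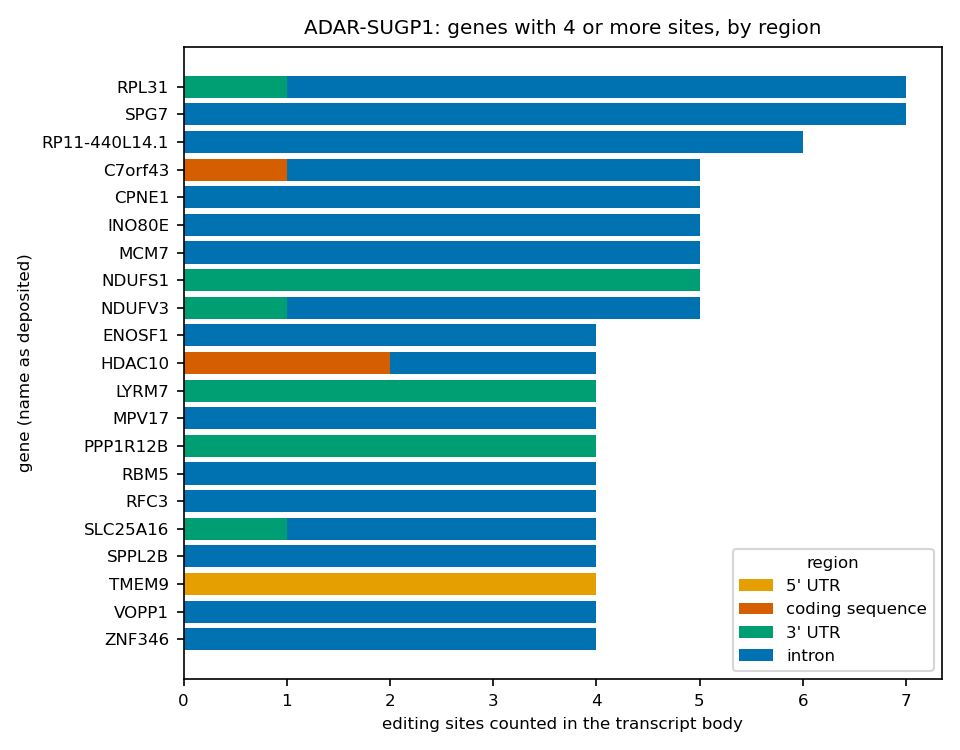
Body sites of the 21 genes with 4 or more sites, each bar split by region (horizontal axis, number of sites; names as deposited). Introns make up whole bars for most genes, while NDUFS1, LYRM7 and PPP1R12B are edited in the 3′ UTR alone and TMEM9 in the 5′ UTR alone.

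Among 3′ UTRs, LYRM7, an assembly factor for complex III, and PPP1R12B, a myosin phosphatase targeting subunit, followed NDUFS1 with 4 sites each. AJUBA, a LIM-domain scaffold of cell junctions, ALDH6A1, a mitochondrial dehydrogenase of valine breakdown, CHRNG, a subunit of the fetal muscle acetylcholine receptor, and CRYZL1 had 2 each. None of these named genes had a site in another body region. Repeats in 3′ UTRs were thus rarer than single sites, which made up 139 of the 166 genes edited there alone.

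Among 5′ UTRs, TMEM9, a lysosomal membrane protein gene, stood out with 4 sites, all on 1 of its 2 listed transcripts. CERCAM and UNC119, a carrier of lipid-modified proteins, had 3 each, and AGAP6 had 2. AKT1S1, the PRAS40 subunit of mTORC1, ARSA, the lysosomal arylsulfatase, and AHSA2 had 1 site, like most genes edited there.

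In coding sequence no gene carried more than 3 sites. B4GALNT4, a glycosyltransferase gene, and GVQW1 reached 3, and ARHGEF10L, CUL9, a cullin of ubiquitin ligases, DEF8, HDAC10, LAMB2 and LRRC24 had 2. The sites of DEF8 lay on 2 different transcripts, 1 on each.

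The promoter region, whose extent is not stated, held 15 sites in 13 genes (1.17% of 1110). AP000765.1, typed as miRNA, and the pseudogene GSTM3P1 had 2 each. CSNK1D, the clock kinase casein kinase 1 delta, KCTD13, an adaptor of CUL3 ubiquitin ligases, C6orf183, AP006216.11, the pseudogene DND1P1 and MIR3671 had 1. None of the transcripts with a promoter site also had a body site.

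The stop-codon region, whose extent is not stated, held sites in more genes than coding sequence and in fewer than the 3′ UTR. It held 159 sites in 146 of 1340 transcripts (10.9%, 9.28 to 12.7), which belong to 143 genes (12.9%). CPSF3L (current symbol INTS11), the catalytic subunit of the Integrator complex that cleaves snRNA precursors, had 3. HNRNPU, an abundant nuclear RNA-binding protein, RBM5, a splicing regulator with a G-patch, RNPC3, a protein of the minor spliceosome, RAD9A, a DNA damage checkpoint clamp subunit, RPS15, a small-subunit ribosomal protein, HDAC10 and FAM160B2 had 2 each. Those with 2 are the first in alphabetical order among the genes tied at that count.

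Stop-codon sites were mostly listed on transcripts that carried nothing else. Of the 146 transcripts, 25 also held a coding site, 26 a 3′ UTR site, 9 an intronic site and 2 a 5′ UTR site, while 87 held no body site. For 79 of these 87 the same gene had a body site on another listed transcript, and for 8 it had none. Those 79 transcripts belong to 77 genes, of which 50 had an intronic site elsewhere, 20 a coding site, 9 a 3′ UTR site and 2 a 5′ UTR site, and 53 of them had exactly 1 body site. Named cases were RNPC3, with 3 intronic sites on 1 transcript and 2 stop-codon sites on the other, and CPSF3L, with 3 intronic sites on 1 transcript and its stop-codon sites on 2 others. AKT1, the growth-factor kinase, and ACTB, cytoskeletal actin, each had 1 intronic site on 1 transcript and 1 stop-codon site on another. HNRNPU had its 2 stop-codon sites and no body site at all. Whether 1 genomic site was entered under different regions, on the same transcript or on different ones, cannot be told without positions. The share of transcripts with a stop-codon site was 4.07% among genes with 1 listed transcript.

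Several transcripts were listed for 202 genes, up to 5 for RPL31. In 168 of the 202, all body sites were on exactly 1 transcript, and in 34 they were spread over 2 or more. RPL31 was the most divided, with 3, 2, 1 and 1 body sites on 4 transcripts and a stop-codon site on the fifth. SPG7 had 6 on 1 transcript and 1 on the other. SPPL2B, an intramembrane protease gene, had 2, 1, 1 and 0 over 4 entries typed as processed transcripts. NDUFV3 had its 4 intronic sites on 1 transcript and its 3′ UTR site on another. Of the 1340 transcripts, 162 were at 0 in every column, 113 of which belong to a gene with a body site on another transcript, and 49 genes were at 0 throughout.

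Among 20052 protein-coding genes of the RefSeq table, 968 (4.83%) were on the list, and 194 (0.967%) had at least 2 sites. Edited stands here and below for being on the list, with or without a counted site, and 940 of the 968 had a body site. Members of 52 gene lists were counted against these shares. The genes expressed in 293T cells, which alone could be edited, are not given, so a share above 4.83% says nothing by itself about preference. At least 1 edited member was found in 50 lists, and the share was above that of all protein-coding genes in 44. Edited protein-coding genes had a median of 1 site and a mean of 1.27. Of these 968 genes, 63.3% had an intronic site, 18.2% a 3′ UTR site, 126 genes a coding site and 5.68% a 5′ UTR site, 20.0% had 2 or more sites, and 14.5% were also on the GPATCH8-ADAR list. The members' counts are to be read against these shares. The median was also 1 in 44 lists, and it is given below only where it differs.

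**Figure D4:**
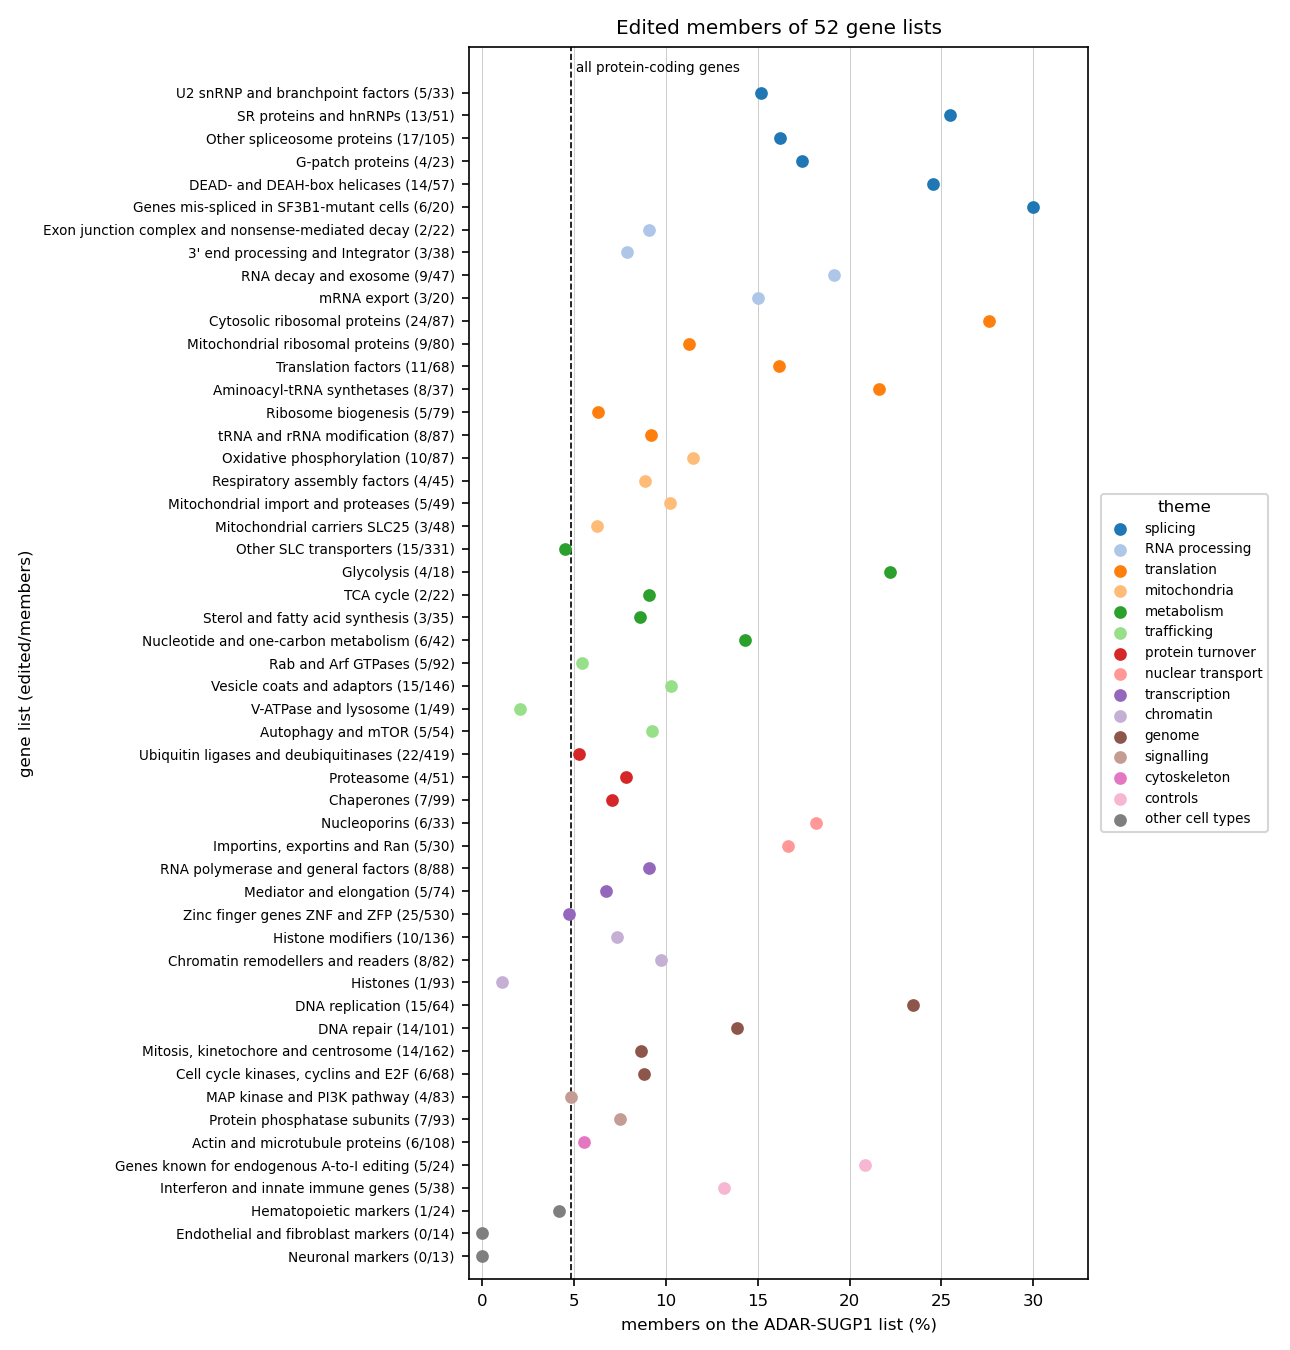
Share of the members of 52 gene lists that were on the ADAR-SUGP1 list (horizontal axis, %), with edited and total members in brackets and the theme in colour; the dashed line is the 4.83% of all protein-coding genes. Genes mis-spliced in SF3B1-mutant cells (6 of 20), cytosolic ribosomal proteins (27.6%), SR proteins and hnRNPs (25.5%), DEAD- and DEAH-box helicases (24.6%) and DNA replication (23.4%) lie furthest to the right. Histones (1.08%) lie to the left, as do the markers of other tissues, whose lists of 13, 14 and 24 members are too small to be told from the dashed line.

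SUGP1 and some factors that act near it were looked up whatever their counts. SUGP1 itself, GPATCH8, SF3B1, DHX15, U2AF1, U2AF2 and the endogenous editing enzyme ADAR were not on the list, and SF1, which binds the branchpoint before the U2 snRNP, had 1 intronic site. Among 33 U2 snRNP and branchpoint factors, 5 (15.2%, beside 4.83% of all protein-coding genes) were edited. All 5 had an intronic site, beside 63.3% of all edited protein-coding genes. RBM5 carried 4 intronic sites, RBM39, a U2AF-related splicing factor, carried 2, and DDX39B, a helicase of U2 snRNP recruitment and mRNA export, SF3B3, a core SF3b subunit, and SF1 carried 1. Of these 5, RBM39 and SF3B3 were also listed for GPATCH8-ADAR, beside 14.5% of all edited protein-coding genes. Of 23 G-patch genes, 4 (17.4%) were edited, RBM5 and, with 1 intronic site each, its paralogue RBM6, the cap methyltransferase CMTR1 and the speckle protein SON.

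Other splicing groups had more edited members. SR proteins and hnRNPs, which bind exonic and intronic enhancers and silencers, had 13 of 51 (25.5%). An intronic site was present in 10 and a 3′ UTR site in 2, beside 63.3% and 18.2% of all edited protein-coding genes. RALY and SRSF11 had 2 intronic sites each, and HNRNPA1L2, HNRNPA3, HNRNPDL and PCBP2 had 1. Of the 13, 0 were also on the GPATCH8-ADAR list, which held 3 other members, beside 14.5% of all edited protein-coding genes. Of 105 other spliceosome proteins, 17 (16.2%) were edited, with 3 intronic sites in RNPC3 and in SNRPB, a core Sm protein, and 2 in DDX17, in LUC7L, a U1 snRNP-associated factor, and in PPWD1. DDX5 had its 2 sites in the 3′ UTR. DEAD- and DEAH-box helicases, which remodel RNA and its proteins, had 14 of 57 (24.6%). DDX56, a nucleolar helicase, had 2 intronic sites and 1 in a 5′ UTR, and DDX39A, DDX39B and DDX49 had 1 intronic site each.

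Genes known to be mis-spliced in SF3B1-mutant cells had 6 edited of 20 (30.0%). ENOSF1, an enzyme gene antisense to thymidylate synthase, carried 4 intronic sites. ORAI2, a store-operated calcium channel subunit, carried 2 in its 3′ UTR. The Wnt scaffold DVL2, ERGIC3 of the early secretory pathway, PPOX of heme synthesis and the phosphatase subunit PPP2R5A carried 1 intronic site each. Of the 6, ENOSF1 and ERGIC3 were on the GPATCH8-ADAR list too, beside 14.5% of all edited protein-coding genes. The number of members is small, and the sites' distance from the affected splice sites is unknown.

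Later steps of RNA metabolism were represented unevenly. RNA decay and exosome genes had 9 of 47 (19.1%), 7 of them with an intronic site, beside 63.3% of all edited protein-coding genes. The exosome subunit EXOSC9 and the deadenylase subunit PAN2 had 2 sites, and CNOT3, DDX6 and EXOSC7 had 1. EXOSC10, the nuclear exosome nuclease, had a coding and a stop-codon site. Of 20 mRNA export genes, 3 (15.0%) were edited, DDX39A, DDX39B and MCM3AP. Of 38 genes of 3′ end processing and Integrator, 3 (7.89%) were edited with a median of 2 sites, CPSF3L with 3, SSU72, a polymerase phosphatase, with 2 and PCF11, a termination factor, with 1, all intronic. Exon junction complex and nonsense-mediated decay genes had 2 of 22 (9.09%), CASC3 in an intron and WIBG (current symbol PYM1) in the 5′ UTR.

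Cytosolic ribosomal proteins had 24 edited of 87 (27.6%), with 39 sites, 35 of them intronic and 4 in 3′ UTRs, and 21 of the 24 genes had an intronic site, beside 63.3% of all edited protein-coding genes. After RPL31, the large-subunit genes RPL3, RPL5, RPL6 and RPL12 had 3 intronic sites each, and RPL15 had 2 in its 3′ UTR. No member had a coding or 5′ UTR site. Of the 24, 1 was also on the GPATCH8-ADAR list, which held 6, beside 14.5% of all edited protein-coding genes. Ribosomal protein genes have many processed pseudogenes that can share exonic reads, and their part in these counts was not tested.

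The shares of other translation groups were smaller. Translation factors had 11 of 68 (16.2%), with 3 intronic sites in the initiation subunit EIF3K and 2 in EEF2, which moves the ribosome along mRNA, and in EIF3L. EIF3G had 1 coding and 1 intronic site, and PABPC4, a poly(A)-binding protein, 1 in the 5′ UTR and 1 intronic. Aminoacyl-tRNA synthetases, which charge tRNAs, had 8 of 37 (21.6%), of which AIMP1 was at 0 in every column. Their 10 sites were all intronic, 2 each in HARS, NARS and VARS2. Mitochondrial ribosomal proteins had 9 of 80 (11.2%), of which MRPL34, MRPL38 and MRPS30 were at 0 in every column. In that group MRPL19 and MRPL20 had 2 intronic sites each. Ribosome biogenesis factors had 5 of 79 (6.33%), led by the nucleolar GTPase GNL3 with 3. All 5 had an intronic site, beside 63.3% of all edited protein-coding genes. Of 8 edited tRNA and rRNA modification genes among 87 (9.20%), 4 had a 3′ UTR site, beside 18.2% of all edited protein-coding genes, METTL8 and TRMU with 2 sites and ADAT1 and METTL2B with 1.

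Mitochondrial genes had some of the highest counts. Of 87 oxidative phosphorylation genes, 10 (11.5%) were edited with 21 sites, 10 of which were in NDUFS1 and NDUFV3. ATP5B (current symbol ATP5F1B), which holds the catalytic sites of ATP synthase, carried 3 sites in introns, and UQCRH of complex III had 2. Of 45 respiratory assembly factors, 4 (8.89%) were edited, and beside LYRM7 these were COA4 and NDUFAF3 with 1 site in the 5′ UTR and COA5 with 1 in an intron. Mitochondrial import and protease genes had 5 of 49 (10.2%), SPG7 with 7 and the inner-membrane translocase subunit TIMM50 with 2. Of 48 SLC25 carriers, 3 (6.25%) were edited with a median of 3 sites, among them SLC25A16 with 4 and SLC25A39 with 1.

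Among metabolic enzymes, glycolysis had 4 of 18 (22.2%), all intronic, with 3 sites in the enolase ENO1 and 1 in PFKL, PKM and TPI1. An intronic site was present in 63.3% of all edited protein-coding genes. Sterol and fatty acid synthesis had 3 of 35 (8.57%) with a median of 2, ACLY, which makes cytosolic acetyl-CoA, with 3 intronic sites, SREBF1, the transcription factor of lipid synthesis, with 2 in its 3′ UTR, and FASN with 1. Nucleotide and one-carbon metabolism had 6 of 42 (14.3%) with 1 site each, among them RRM2, the small subunit of ribonucleotide reductase, in an intron. The TCA cycle had 2 of 22 (9.09%), citrate synthase CS in an intron and pyruvate carboxylase PC in coding sequence. Solute carriers outside SLC25 had 15 of 331 (4.53%), near the background, led by the zinc transporter SLC30A5 with 3.

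Of 64 DNA replication genes, 15 (23.4%) were edited with 29 sites. An intronic site was present in 14 of the 15 and 2 or more sites in 7, beside 63.3% and 20.0% of all edited protein-coding genes. MCM7 led with 5, followed by RFC3, a clamp loader subunit, with 4 and by MCM5 and the polymerase delta subunit POLD3 with 3. ORC6 of the origin recognition complex had 2 intronic sites, and DBF4B had 1 intronic and 1 in the 3′ UTR. Of the 15, 3 were also on the GPATCH8-ADAR list, which held no other member, beside 14.5% of all edited protein-coding genes.

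DNA repair genes had 14 of 101 (13.9%) with a median of 2 sites, and 9 of them had 2 or more, beside 20.0% of all edited protein-coding genes. NEIL1, a base excision glycosylase, and XRCC5, the Ku80 subunit of end joining, had 3 intronic sites each, and EME2, EXO1, FANCA and FANCI had 2. Cell cycle kinases and cyclins had 6 of 68 (8.82%), led by CCNL1, a cyclin linked to splicing, with 3, and CDK10 with 2. Mitosis, kinetochore and centrosome genes had 14 of 162 (8.64%), of which only HAUS6 of the augmin complex had 2 sites. In that group 5 of the 14 had a 3′ UTR site and 7 an intronic site, beside 18.2% and 63.3% of all edited protein-coding genes.

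Chromatin remodellers and readers had 8 of 82 (9.76%), all intronic, INO80E with 5, the heterochromatin protein CBX3 with 2 and BPTF, CBX6, CHD1 and CHD1L with 1. An intronic site was present in 63.3% of all edited protein-coding genes. Histone modifiers had 10 of 136 (7.35%), among them HDAC10 with 4 sites and HDAC1 and the acetyltransferase KAT8 with 2 intronic sites. RNA polymerase and general factors had 8 of 88 (9.09%), with 2 sites in the 3′ UTR of POLR1A, the largest subunit of RNA polymerase I. Mediator and elongation genes had 5 of 74 (6.76%), among them MED24 and MED28 in the 3′ UTR. Zinc finger genes had 25 of 530 (4.72%), and ZNF346, which binds double-stranded RNA, had 4 intronic sites. Of the 25, 8 had a 3′ UTR site and 13 an intronic site, beside 18.2% and 63.3% of all edited protein-coding genes. Of 93 histone genes 1 was edited, H2AFZ (current symbol H2AZ1), a replication-independent variant.

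Among nuclear transport genes, nucleoporins had 6 of 33 (18.2%), NUP155, NUP188, NUP210, NUP43, NUP85 and RANBP2, each with 1 intronic site. Importins, exportins and Ran factors had 5 of 30 (16.7%), XPO1, XPO5, XPO6 and NUTF2 in introns and RANGAP1 in the 5′ UTR. Each of these 11 genes had 1 site, and 20.0% of all edited protein-coding genes had 2 or more.

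Among protein turnover and trafficking groups, the shares of ubiquitin genes and of Rab and Arf GTPases were close to 4.83%, and those of vesicle coats, chaperones, proteasome and autophagy genes were higher. Ubiquitin ligases and deubiquitinases had 22 of 419 (5.25%), led by UBE2O with 3, and 6 of the 22 had a coding site, beside 126 of all 968 edited protein-coding genes, among them CUL9 with 2 and RNF31 with 1. Vesicle coats and adaptors had 15 of 146 (10.3%), C7orf43 with 5 and AP5Z1 and the exocyst subunit EXOC7 with 2. Rab and Arf GTPases had 5 of 92 (5.43%), with 2 sites in the 3′ UTR of RAB2B. Chaperones had 7 of 99 (7.07%) with a median of 2 sites, the co-chaperone PTGES3 and the chaperonin subunit TCP1 with 3 each. Proteasome genes had 4 of 51 (7.84%), where PSMD7 of the lid had 2 intronic sites and 1 coding site. Autophagy and mTOR genes had 5 of 54 (9.26%), led by the autophagy receptor SQSTM1 with 2 intronic sites, and LAMTOR4 was at 0 in every column.

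Protein phosphatase subunits had 7 of 93 (7.53%), led by PPP1R12B. Actin and microtubule genes had 6 of 108 (5.56%), with 2 sites in the cortical actin protein CTTN. All 6 had an intronic site, beside 63.3% of all edited protein-coding genes. MAP kinase and PI3K genes had 4 of 83 (4.82%), AKT1, MAP3K6, MAP4K5 and PIK3CD with 1 site each. The V-ATPase and lysosome list had 1 of 49 (2.04%), the acid glucosidase GAA.

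Lists for other sources of signal were counted in the same way. Genes with known A-to-I editing by endogenous enzymes had 5 of 24 (20.8%) although endogenous events had been subtracted, NEIL1 and UBE2O with 3 intronic sites, NUP43 and SON with 1, and EIF2AK2, the double-stranded RNA kinase, with 1 in its 3′ UTR. Whether these are sites edited in untransfected cells cannot be checked without positions. Interferon and innate immune genes had 5 of 38 (13.2%), the cytokine receptor kinase TYK2 with 2 sites and EIF2AK2, IFNAR1, IRAK4 and IRF3 with 1. Markers of endothelial cells and fibroblasts (14) and of neurons (13) had no member on the list. Hematopoietic markers had 1 of 24 (4.17%), HAVCR2 with 2 intronic sites, beside 4.83% of all protein-coding genes. At such a share, lists this small can lack an edited member, so these counts do not set the markers apart from other genes. The table holds no expression values, so the labelled cell line itself could not be checked against markers.

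Transcripts not typed protein-coding made up a small share. Of the 1340 transcripts, 1216 (90.7%) were typed protein-coding, 50 (3.73%) antisense, 25 processed transcripts, 24 pseudogenes, 19 lincRNAs and 3 miRNAs. The 124 transcripts that were not protein-coding belong to 115 genes and held 106 sites, all counted as intronic, and the table has no column for exons of such RNAs. After RP11-440L14.1 and SPPL2B, CTD-2228K2.7, RP11-169K16.9 and RP5-1142A6.2 had 3 sites. SPPL2B is a protease gene and is counted here only because its listed entries are typed as processed transcripts. AC034193.5, AL773604.8, AP003900.6, CTD-2037K23.2 and HNRNPU-AS1, which lies antisense to HNRNPU, had 2. It is not stated that strand was used, so a site in an antisense RNA and a site in the gene opposite cannot be told apart.

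Genes holding small RNAs were looked at after the values had been seen, by nesting within the RefSeq gene bounds. A snoRNA gene lay within 65 of 968 edited protein-coding genes (6.71%, 5.22 to 8.48) and within 461 of 19065 that were not listed (2.42%). GNL3 holds 5 snoRNA genes, RPL3 holds 4, and ATP5B, RPL5 and TCP1 hold 2 each, and all of these had 3 intronic sites. An intronic site was present in 48 of the 65 (73.8%, 61.5 to 84.0), an interval that includes the 63.3% of all edited protein-coding genes. MicroRNA genes on the same strand lay within 58 of 803 edited genes of known strand (7.22%, 5.53 to 9.24) and 614 of 15039 not listed (4.08%), and 41 of the 58 had an intronic site (70.7%, 57.3 to 81.9), an interval that includes the same 63.3%.

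Edited genes had an edited neighbour more often than genes not listed did, though most had none. Of the 968, 194 (20.0%, 17.6 to 22.7) had an edited protein-coding gene as nearest neighbour on either side, against 1660 of 19065 genes not listed (8.71%, 8.31 to 9.12). There were 104 such pairs, and both genes had a body site in 82. Gene bounds overlapped in 29 of the 104 (27.9%, 19.5 to 37.5), against 2471 of all 20009 neighbouring pairs (12.3%), and in such pairs 1 site may have been counted for both genes. Of 74 pairs whose strands are known, 23 were head to head (31.1%, 20.8 to 42.9, against 25.7% of all pairs). Tail to tail were 22 (29.7%, 19.7 to 41.5, against 25.4%), and 29 lay in the same direction (39.2%, 28.0 to 51.2, against 48.9%). Each of these intervals includes the share of all pairs.

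The pairs with the highest smaller count were ATP5B with PTGES3 and NEIL1 with MAN2C1, a cytosolic mannosidase gene, at 3 sites in each gene. NEIL1 and MAN2C1 overlap tail to tail, and all sites of both were intronic. FANCI and POLG, the mitochondrial DNA polymerase, also overlap and had 2 intronic sites each. DAZAP1 and RPS15 had 2 intronic sites each without overlap, and RCC2 and ARHGEF10L had 2 intronic and 2 coding sites. RBM6 and RBM5 lie in the same direction with 1 and 4 intronic sites, COMMD4 and NEIL1 had 1 and 3, and DDX56 and TMED4 had 3 and 1.

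The 162 genes also listed for GPATCH8-ADAR, 14.6% of the 1110, differed in makeup from the 948 listed for ADAR-SUGP1 alone. The shared genes carried 1.51 ± 1.03 ADAR-SUGP1 sites (SD over genes, n = 162) and 53 of them (32.7%, 25.6 to 40.5) had 2 or more, against 1.17 ± 0.699 (n = 948) and 161 (17.0%, 14.6 to 19.5). Of the 245 sites in shared genes, 205 (83.7%, 78.4 to 88.1) were intronic, 33 (13.5%) lay in a 3′ UTR, 5 (2.04%, 0.666 to 4.70) in coding sequence and 2 (0.816%) in a 5′ UTR. Of the 1113 sites in the others, 735 (66.0%, 63.2 to 68.8) were intronic, 178 (16.0%) lay in a 3′ UTR, 136 (12.2%, 10.4 to 14.3) in coding sequence and 64 (5.75%, 4.46 to 7.28) in a 5′ UTR. The intervals for introns, coding sequence and the 5′ UTR did not overlap between these sets, and those for the 3′ UTR did.

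Seen from the regions, 132 of 709 genes with an intronic site (18.6%, 15.8 to 21.7) and 25 of 177 with a 3′ UTR site (14.1%, 9.35 to 20.1) were also on the GPATCH8-ADAR list. For coding sites this was 5 of 128 (3.91%, 1.28 to 8.88), and for 5′ UTR sites 2 of 57 (3.51%, 0.428 to 12.1). The 2 genes with a shared listing and a 5′ UTR site included DDX56, and the 5 with a coding site included PSMD7. Over all its genes, GPATCH8-ADAR had 79.0% of 797 sites in introns and 2.13% in coding sequence, and it listed 485 of the 20052 protein-coding genes (2.42%). The shared genes thus had regional shares close to those of GPATCH8-ADAR, while the coding and 5′ UTR sites of ADAR-SUGP1 were mostly in genes that the other list did not hold. The lists come from separate runs, and a difference between the fusions cannot be separated from one between runs.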

How the data were processed

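RNA editing was measured in the run 2 libraries of 293T cells. The authors deposited counts, in whole numbers, of the editing sites (not reads) in each region of each Ensembl transcript, with both replicates pooled and control events removed, per the file headers and the series' design text. The submitters' processing notes name Trimmomatic, STAR and hg19. How sites were called, with which thresholds, whether strand was used and how far each region extends is not given in the sources used here. The labels state a single range of reads, so depth per library is unknown.

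Counts were summed over a gene's transcripts, which assumes that each site was entered for 1 transcript. Of 1110 names, 918 were current symbols, 88 matched as a synonym and 104 were not matched in a RefSeq gene table (GRCh38.p14), used for names, neighbours and nesting. Intervals are Clopper-Pearson (95%, scipy 1.17.1), and counting was tested on simulated data. No test between samples could be made. Members, gene lists and alternatives were chosen with earlier results of these data known. Named genes were the 10 with the most body sites, 8 per region, up to 8 with the most regions, up to 6 per list, 10 non-coding, 8 neighbour pairs and SUGP1, GPATCH8, SF3B1, DHX15, SF1, U2AF1, U2AF2 and ADAR, with ties in alphabetical order. The single transcripts described for AKT1, ACTB and other genes, and the genes holding small RNAs, were chosen after values were seen. Alternatives were other sets of genes, transcripts and neighbours, and totals with stop-codon sites. Some genes that this rule names are not reported here.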

Additional observations from a re-analysis of the deposited data

How the results depend on the processing

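No paired analysis was possible because the deposited list pools both replicates into 1 count, and for the same reason no replicate could be left out. The order of the 4 regions was the same under each alternative tried. Among genes with 1 listed transcript, introns held 73.7% of sites, coding sequence 8.30% and the 5′ UTR 2.96%, and 4.07% of transcripts had a stop-codon site. Among protein-coding transcripts, introns held 66.6%. Among genes not on the GPATCH8-ADAR list, introns held 66.0% and coding sequence 12.2%, and 17.0% of genes had 2 or more sites. With stop-codon sites added to the total, a setting chosen after seeing the data, the intronic share was 62.0%. With stop-codon and promoter sites added to the body count, also chosen after seeing the data, 27.9% of genes had 2 or more. A site also entered under another region would be counted more than once in both totals. Edited genes next to an edited gene were 11.4% with neighbours of any gene type (4.16% for genes not listed) and 16.4% when a body site was required (8.65%). A minimum of 2 sites left 194 edited protein-coding genes and moved the edited count of 46 of 52 lists by more than 1.5 times, and current symbols alone moved 3, leaving out genes on the GPATCH8-ADAR list 4, and requiring a body site none. Depth behind a site is unknown, so the absence of a gene from the list is no evidence that it was not edited.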
